A study of Mus musculus with 6 samples.

Results

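The 9 genes described here encode the JAK kinases *Jak1*, *Jak2* and *Tyk2*, the STAT transcription factors *Stat2*, *Stat3*, *Stat5a*, *Stat5b* and *Stat6*, and gp130 (*Il6st*), the receptor chain shared by the interleukin-6 family. They were chosen by name, and each has a row among the 12125 genes of the deposited table of normalized counts. RNA was sequenced from 500 sorted kidney cells per library, 3 libraries labelled *Trf1+/+* and 3 labelled *Trf1flox/flox*. All mice of both groups carried the Col1a2-CreERT2 transgene, a tamoxifen-inducible Cre driven from *Col1a2*, and the KFP (Katushka) reporter, which Cre switches on. Both groups received tamoxifen 3 times a week for 8 weeks, starting at 6 to 8 weeks of age, and the study used males and females. In *Trf1flox/flox* mice Cre can delete *Trf1* (gene symbol *Terf1*), which encodes a telomere-binding protein of shelterin. Cells were sorted with antibodies to CD29 and to KFP, and the sources do not say whether the sequenced cells carried both. Replicates 1 to 3 of each group are names in the order of deposition and pair no mice.

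In this pathway a cytokine brings receptor chains together, and the JAK kinases bound to those chains phosphorylate the receptor, each other and the STAT factors docked there. Phosphorylated STATs pair, enter the nucleus and bind DNA. JAK1, JAK2 and TYK2 serve gp130. STAT3 is the main factor downstream of gp130, STAT2 acts in type I interferon signaling, STAT5A and STAT5B act downstream of growth hormone and prolactin receptors, and STAT6 acts downstream of interleukin-4 and interleukin-13. In kidney, STAT3 and JAK signaling are known from work on inflammation and fibrosis. Activity of these proteins depends on phosphorylation, which RNA levels do not measure.

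Some facts of the libraries touch every value below. The listed genes held between 10263382 and 12248797 reads per library, and 1 read was worth between 0.689 and 1.09 normalized counts. A count of 3 reads or fewer was treated as the floor, which covers counting error only, since the reads were amplified by PCR and carry no molecular identifiers. *Terf1*, the targeted gene, was measured at 0.891, 253 and 235 normalized counts under the *Trf1+/+* label and at 110.0, 7.65 and 12.4 under the *Trf1flox/flox* label. The value of 0.891, which is 1 read, is low for the label of *Trf1+/+* replicate 1. The value of 110.0 in *Trf1flox/flox* replicate 1, which is 128 reads, is high for its label beside 7.65 and 12.4. Whether either value reflects the genotype of the mouse was not tested. The library labelled *Trf1+/+* replicate 1 had a median of 13.4 normalized counts over all genes, against 118 to 148 in the other 5. It had 34.4% of tested genes at the floor, against 2.48% to 20.0%. The cell type label is fibroblasts, but 10 of 14 fibroblast markers, *Col1a1*, *Pdgfra* and *Pdgfrb* among them, have no row in the table. *Col1a2* lay between 0 and 1.78 normalized counts in every library. All 12 proximal tubule and all 7 loop and distal tubule markers were listed, with sums of 19716 to 89657 and 93121 to 144300 normalized counts in *Trf1+/+* libraries and 21893 to 115452 and 66121 to 154513 in *Trf1flox/flox* libraries. The 4 listed fibroblast markers summed to 13.4 to 1737 and 496 to 921, most of it in 5 libraries *Itgb1* (CD29), which tubule cells also express. The libraries are therefore named here by genotype and not by cell type. The part of these cells or of the library labelled *Trf1+/+* replicate 1 in any difference was not tested. In sorted bulk samples fewer cells of a type and less RNA per cell cannot be told apart.

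The promoters of the 4 members whose *Trf1flox/flox* libraries all lay above their *Trf1+/+* libraries are printed here, because they let a reader compare the DNA just upstream of these genes. Each is the 250 bases before a RefSeq start site on GRCm38.p6, written in the direction of transcription. Searched on both strands were the STAT site GAS (TTCNNNGAA) and the interferon element ISRE (GAAA, any 2 bases, GAAA), and the letters of a match are in capitals. *Stat2* is shown at chr10:128270248-128270497 (+), *Il6st* at chr13:112463820-112464069 (+), *Jak1* at chr4:101265224-101265473 (-), and *Stat5a* has a pair of start sites, at chr11:100859406-100859655 (+) and chr11:100860234-100860483 (+).
Stat2: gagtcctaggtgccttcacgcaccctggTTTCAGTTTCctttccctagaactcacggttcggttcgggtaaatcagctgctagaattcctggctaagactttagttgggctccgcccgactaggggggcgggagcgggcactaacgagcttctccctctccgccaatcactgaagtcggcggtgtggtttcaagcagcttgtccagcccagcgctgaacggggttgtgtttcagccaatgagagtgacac
Il6st: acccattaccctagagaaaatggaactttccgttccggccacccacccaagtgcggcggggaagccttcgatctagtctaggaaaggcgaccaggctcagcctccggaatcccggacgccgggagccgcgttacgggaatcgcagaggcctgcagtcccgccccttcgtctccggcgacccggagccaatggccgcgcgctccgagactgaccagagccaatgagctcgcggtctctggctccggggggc
Jak1: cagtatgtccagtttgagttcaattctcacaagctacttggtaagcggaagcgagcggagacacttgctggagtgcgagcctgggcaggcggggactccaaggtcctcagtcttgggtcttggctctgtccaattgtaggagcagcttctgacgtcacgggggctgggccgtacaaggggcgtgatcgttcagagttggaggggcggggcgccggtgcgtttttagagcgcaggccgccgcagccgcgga
Stat5a, first start: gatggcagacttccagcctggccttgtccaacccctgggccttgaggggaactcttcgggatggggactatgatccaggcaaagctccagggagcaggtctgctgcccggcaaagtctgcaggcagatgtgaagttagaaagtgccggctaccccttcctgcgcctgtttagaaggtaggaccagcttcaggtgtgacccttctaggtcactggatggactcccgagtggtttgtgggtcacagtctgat
Stat5a, second start: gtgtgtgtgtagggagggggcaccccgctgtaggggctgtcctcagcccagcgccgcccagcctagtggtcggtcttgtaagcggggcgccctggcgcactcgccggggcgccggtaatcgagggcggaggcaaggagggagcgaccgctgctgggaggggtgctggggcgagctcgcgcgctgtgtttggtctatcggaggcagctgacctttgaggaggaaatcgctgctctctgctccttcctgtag
Of the 11 promoters listed for the 9 genes, 1 held an ISRE, that of *Stat2*. Its first base lies at -222 from the start site and it reads TTTCAGTTTC, which is the motif on the other strand. Across 32851 mouse promoters of the same length, 2.98% held an ISRE. None of the 11 held a GAS match, against 7.02% of all promoters, which says only that these letters are not in these windows. By base composition, the printed windows ranged from 56.8% GC for *Stat2* to 68% for the second start of *Stat5a*, and the median of all promoters was 52.4%.

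Between genotypes, *Jak1*, *Stat2*, *Stat5a* and *Il6st* had all 3 *Trf1flox/flox* libraries above all 3 *Trf1+/+* libraries, whereas *Jak2*, *Tyk2*, *Stat3*, *Stat5b* and *Stat6* overlapped. Groups that did not overlap in this direction were found for 5.35% of the 9966 genes tested. None of the 9 genes passed an adjusted p of 0.05 in limma, and neither did any gene of the table (0.0% of 9966). On the recovered reads edgeR also called no gene, and DESeq2 called 58 genes (0.617% of 9407), none of them among the 9. At an unadjusted p under 0.05 in limma, 2.1% of all tested genes were higher in *Trf1flox/flox* libraries (312 genes or 3.13% in either direction). Among the 9 this held for *Stat5a* and *Stat2*, and neither is read as a call. Only its high group carried *Stat2* past the filter on low values. *Stat5a* reached 10 normalized counts in 3 *Trf1flox/flox* libraries but in only 1 *Trf1+/+* library, so it too passed only through its high group. The log2 fold change, on the log2(normalized count + 1) scale, was above 0 for 8 of the 9 genes and for 55.9% of all tested genes. Of the 8 that passed the filter, 7 were above 0 in edgeR, in DESeq2 and after median centring, and 6 with array weights, since *Stat3* or *Stat6* or both changed sign. The share of all genes above 0 was not computed for these settings. Its median over the 9 genes was 2.29, against 0.20 over all tested genes. Setting *Stat2* to its lower bound could not move this median, since that bound also lies above it. The spread within groups was wide too, with a median SD of 2.97 log2 units for the 9 genes against 2.17 for all tested genes. Of the 9, *Jak2* did not reach 10 normalized counts in 3 libraries and was not tested. *Stat2* and *Stat5a* passed this filter only through their *Trf1flox/flox* libraries. With 3 libraries against 3, an exact permutation test cannot go below a two-sided p of 0.1.

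**Figure D1:**
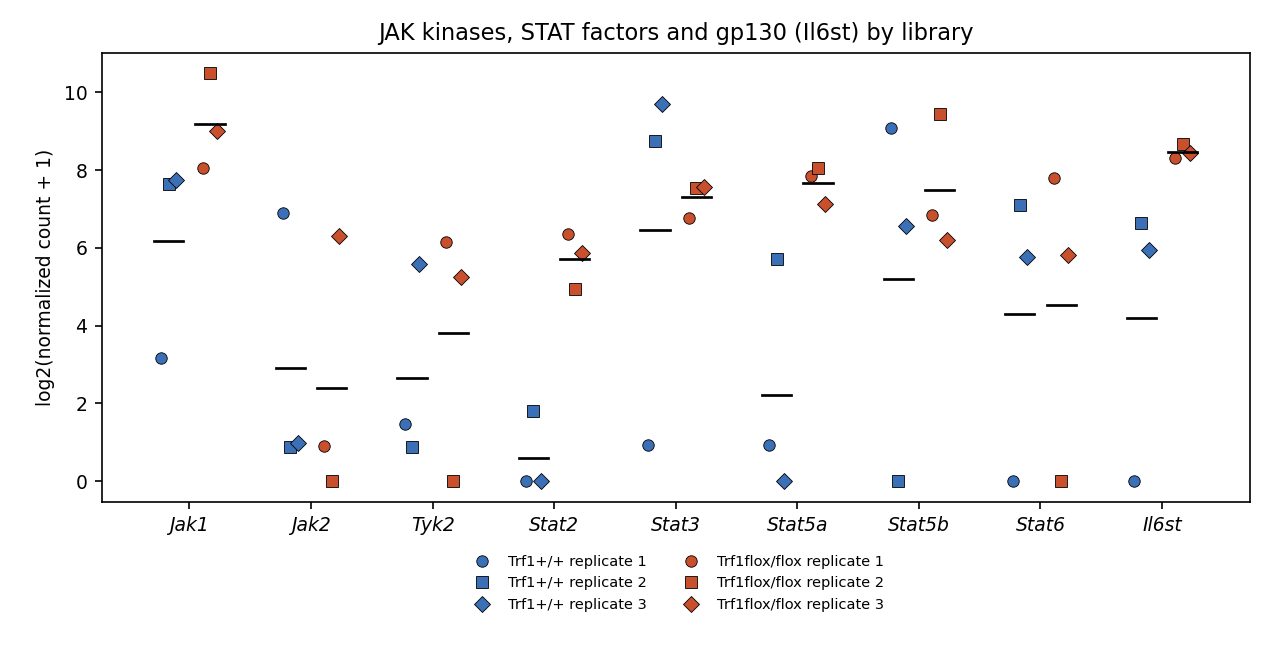
Each point is 1 library, with log2(normalized count + 1) on the y axis, blue for Trf1+/+ and orange for Trf1flox/flox, and the black bar is the mean of the 3 libraries. The groups do not overlap for Jak1, Stat2, Stat5a and Il6st, and 17 of the 54 points lie at the floor of 3 reads or fewer, 6 of them in the library labelled Trf1+/+ replicate 1.

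*Il6st*, the signal-transducing chain of the receptors for interleukin-6, interleukin-11, LIF and oncostatin M (ENSMUSG00000021756, chromosome 13, 112464070 to 112510086 on GRCm38), was at 0, 99.4 and 61.1 normalized counts in the *Trf1+/+* libraries. The *Trf1flox/flox* libraries had 317, 407 and 348. The 3 *Trf1flox/flox* values lay close together and above the rest. Means were 53.5 ± 50.1 and 357 ± 45.4 (SD, n = 3 each). The log2 fold change was 4.27 (SE 2.07, unadjusted p = 0.0612, adjusted p = 0.970 from limma, exact permutation p = 0.1). It fell to 2.17 without the library labelled *Trf1+/+* replicate 1, where no read was counted, and the groups still did not overlap.

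*Jak1*, the kinase used by gp130 and by interferon receptors (ENSMUSG00000028530, chromosome 4, 101152367 to 101265282), was counted at 8.02, 198 and 214 in *Trf1+/+* libraries. In *Trf1flox/flox* libraries it had 265, 1441 and 515. The lowest *Trf1flox/flox* value, 265, was close to the highest *Trf1+/+* value, 214. Means were 140 ± 115 and 741 ± 620 (SD, n = 3 each). The log2 fold change was 3.0 (SE 1.40, unadjusted p = 0.0533, adjusted p = 0.970 from limma, exact permutation p = 0.1), and 1.5 without the library labelled *Trf1+/+* replicate 1. On the recovered reads it was 2.40 in DESeq2 (unadjusted p = 0.0393, adjusted p = 0.993), where 4.27% of all genes were under 0.05. In edgeR it was 2.30 (unadjusted p = 0.0932).

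*Jak2*, the kinase of the growth hormone, prolactin and erythropoietin receptors (ENSMUSG00000024789, chromosome 19, 29251828 to 29313080), was above the floor in a single library of each genotype. Its values were 118, 0.829 and 0.985 normalized counts in *Trf1+/+* libraries against 0.859, 0 and 78.6 in *Trf1flox/flox* libraries. Its 132 reads in the library labelled *Trf1+/+* replicate 1 stand in a library with 9 reads of *Jak1*. The log2 fold change was -0.51 (exact permutation p = 0.6). *Tyk2*, a kinase of interferon and interleukin-12 receptors (ENSMUSG00000032175, chromosome 9, 21104068 to 21131243), stood at 1.78, 0.829 and 47.3 in *Trf1+/+* libraries against 69.6, 0 and 37.2 in *Trf1flox/flox* libraries. The groups overlapped, with a log2 fold change of 1.15 (SE 2.20, adjusted p = 0.983 from limma, exact permutation p = 0.9).

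Taken as a sum, the 3 JAK genes had 127, 200 and 262 normalized counts in *Trf1+/+* libraries against 336, 1441 and 631 in *Trf1flox/flox* libraries. These sums did not overlap, at 196 ± 67.4 and 803 ± 572 (SD, n = 3 each). Per kilobase of exon, *Jak1* made up 77.2% to 100% of the JAK level in 5 libraries. In the library labelled *Trf1+/+* replicate 1 it made up 4.48%, and *Jak2* 94.5%.

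*Stat2*, the STAT of the complex that type I interferon receptors activate (ENSMUSG00000040033, chromosome 10, 128270559 to 128292849), was at the floor in every *Trf1+/+* library, at 0, 2.49 and 0 normalized counts. The *Trf1flox/flox* libraries had 81.6, 29.5 and 57.2. Against a floor of 3 reads, averaged over the *Trf1+/+* libraries, the *Trf1flox/flox* mean of 56.1 ± 26.1 (SD, n = 3) was at least 20.7-fold higher. The groups did not overlap (exact permutation p = 0.1, the smallest this design allows). Model p-values are not given for it, since it was tested only because its *Trf1flox/flox* libraries were high. Its promoter is the one printed above with an ISRE.

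*Stat5a*, a STAT of prolactin signaling (ENSMUSG00000004043, chromosome 11, 100859351 to 100885169), was at 0.891, 51.4 and 0 normalized counts in *Trf1+/+* libraries, against 229, 264 and 139 in *Trf1flox/flox* libraries. Only *Trf1+/+* replicate 2 was above the floor in its group. The 3 *Trf1flox/flox* libraries alone were enough to pass the filter on low values, so the model p-values below are not read as a call. Means were 17.4 ± 29.4 and 211 ± 65.0 (SD, n = 3 each), and the log2 fold change was 5.47 (SE 2.40, unadjusted p = 0.0421, adjusted p = 0.970 from limma, exact permutation p = 0.1). On the recovered reads it was 3.48 in edgeR (unadjusted p = 0.179) and 3.59 in DESeq2 (unadjusted p = 0.0604), where 1.97% and 4.27% of all genes were under 0.05. In limma the unadjusted p was 0.0522 with array weights. With 1 library left out it ranged from 0.0187, without *Trf1+/+* replicate 2, to 0.101, and it was above 0.05 without each of the other 5 libraries. Without the library labelled *Trf1+/+* replicate 1 the log2 fold change was 4.82 (unadjusted p = 0.0608 from limma).

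*Stat5b*, the near-identical paralog (ENSMUSG00000020919, chromosome 11, 100780731 to 100850724), did not follow *Stat5a*. Its normalized counts were 538, 0 and 93.6 in *Trf1+/+* libraries, against 115, 697 and 72.4 in *Trf1flox/flox* libraries. Each genotype had 1 library far above its others, and the log2 fold change was 2.29 (SE 2.35, adjusted p = 0.970 from limma, exact permutation p = 0.5). Reads shared by the paralogs could have been split or dropped in counting, so the level of each is uncertain. Their sum was 539, 51.4 and 93.6 in *Trf1+/+* and 345, 962 and 211 in *Trf1flox/flox* libraries, and these groups overlapped. In the library labelled *Trf1+/+* replicate 1 this sum was 604 reads of *Stat5b* and 1 of *Stat5a*.

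*Stat3*, the main STAT of gp130 (ENSMUSG00000004040, chromosome 11, 100885098 to 100939540), was at 0.891, 433 and 834 normalized counts in *Trf1+/+* libraries, against 108, 186 and 190 in *Trf1flox/flox* libraries. The 2 *Trf1+/+* libraries with reads above the floor both lay above every *Trf1flox/flox* library. Mean levels were 422 ± 416 and 161 ± 46.1 (SD, n = 3 each), lower in *Trf1flox/flox*, while the log2 fold change was 0.84 (SE 2.13, adjusted p = 0.985 from limma, exact permutation p = 1), so the sign depended on the scale. edgeR and DESeq2, which fit the reads, gave -1.43 and -1.39. Without the library labelled *Trf1+/+* replicate 1 the log2 fold change was -1.93 (unadjusted p = 0.0452, adjusted p = 0.999 from limma), and the groups then did not overlap. In that setting 327 of all tested genes had an unadjusted p under 0.05. Groups separate more easily with 2 libraries against 3, and the share of all genes without overlap was not computed there. The *Stat3* and *Stat5a* genes overlap by 72 bases at their ends, and the libraries keep no strand, so reads in that overlap cannot be assigned by strand.

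*Stat6*, the STAT of interleukin-4 (ENSMUSG00000002147, chromosome 10, 127642986 to 127660957), was at 0, 138 and 53.2 normalized counts in *Trf1+/+* libraries, against 223, 0 and 55.8 in *Trf1flox/flox* libraries. Each genotype had 1 library without a read, and the log2 fold change was 0.25 (SE 2.82, adjusted p = 0.997 from limma, exact permutation p = 0.8), or -0.16 after median centring. Across the 5 STAT genes the sums were 540, 624 and 980 in *Trf1+/+* and 757, 1177 and 514 in *Trf1flox/flox* libraries. They overlapped, at 715 ± 234 and 816 ± 335 (SD, n = 3 each). The makeup of the STAT level differed from library to library. Per kilobase, *Stat5b* made up 99.8% of it in the library labelled *Trf1+/+* replicate 1, *Stat3* 53.9% and 75.1% in *Trf1+/+* replicates 2 and 3, and *Stat3* 8.83%, 10.4% and 26.7% in the *Trf1flox/flox* libraries.

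**Figure D2:**
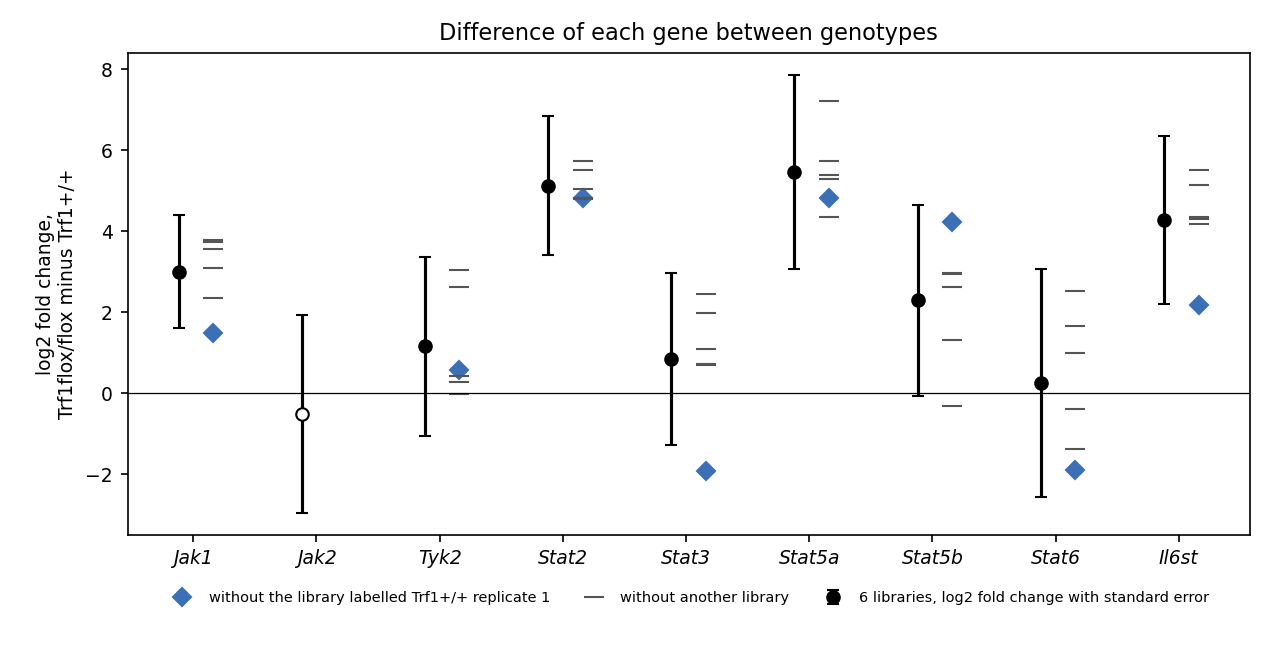
The black points are the log2 fold change of each gene over 6 libraries, Trf1flox/flox minus Trf1+/+, with its standard error (open for Jak2, which the filter left out, from a fit with no filter). Grey dashes leave out 1 library at a time and the blue diamond leaves out the library labelled Trf1+/+ replicate 1, without which Stat3 is at -1.93 and Stat6 at -1.89. The points of Stat2 depend on the pseudocount, since its Trf1+/+ libraries are at the floor.

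Set side by side per kilobase of exon, the genes came in a different order in each genotype. In *Trf1+/+* libraries the means were 44.3 normalized counts per kb for *Stat3*, 38.0 for *Stat5b*, 19.4 for *Jak1*, 14.4 for *Stat6*, 7.91 for *Jak2*, 4.82 for *Il6st*, 2.44 for *Stat5a*, 2.42 for *Tyk2* and 0.140 for *Stat2*. In *Trf1flox/flox* libraries they were 102 for *Jak1*, 53.2 for *Stat5b*, 32.2 for *Il6st*, 29.6 for *Stat5a*, 21.1 for *Stat6*, 16.9 for *Stat3*, 9.47 for *Stat2*, 5.26 for *Jak2* and 5.19 for *Tyk2*. Ranges over the 3 libraries overlapped for every pair of neighbours in both orders, so no neighbours differed beyond their spread. The SD was 43.7 per kb for *Stat3* in *Trf1+/+*, about its mean, and 4.09 for *Il6st* in *Trf1flox/flox*, where its mean was 32.2.

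**Figure D3:**
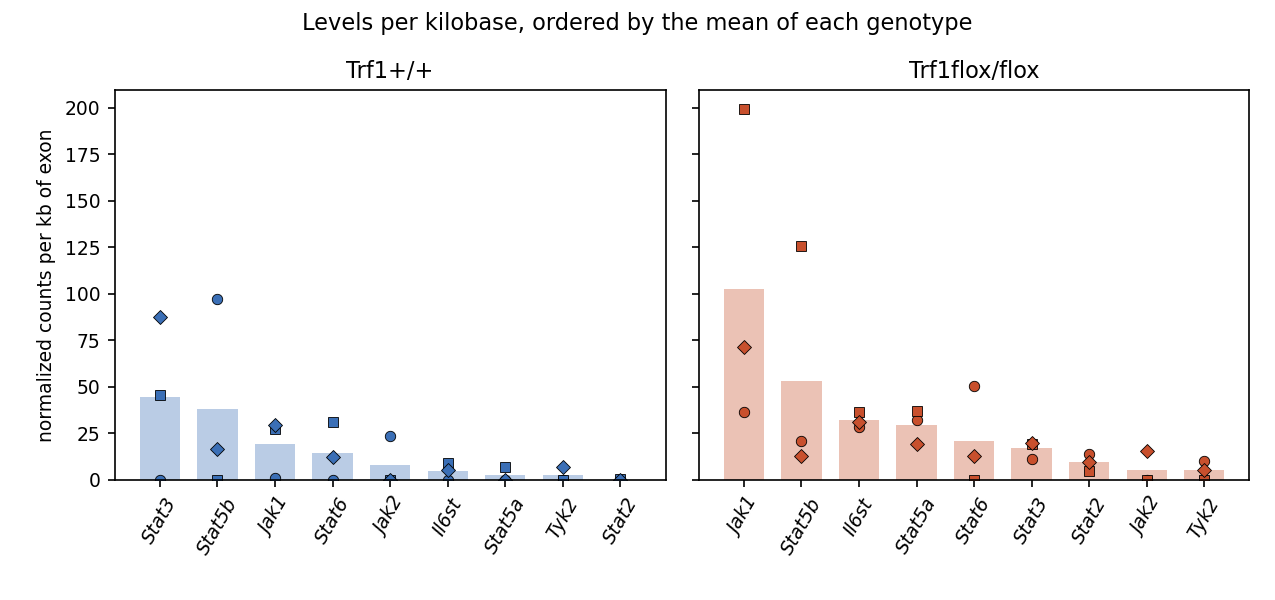
Bars are the mean level of each gene in normalized counts per kb of exon, ordered within each genotype, and points are the 3 libraries (circle, square and diamond for replicates 1, 2 and 3). Jak1 reaches 199 per kb in Trf1flox/flox replicate 2, and neighbouring genes overlap throughout.

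The 9 genes did not all move together over the 6 libraries. Pearson correlations of log2(normalized count + 1), given as a description since the libraries share depth and genotype, were positive for 24 of the 36 pairs and negative for 12, with a median of 0.23. The highest was 0.96, between *Jak1* and *Il6st*, and the lowest -0.69, between *Stat5b* and *Stat6*. *Stat2* and *Stat5a* stood at 0.92. Many other genes of the table matched a member as closely, from 9 genes with a correlation of at least 0.95 for *Jak2* to 282 for *Stat6*. The most alike were *Aldh16a1* (0.998) and *Slc5a1* (0.997) for *Jak1*, *H2-K1* (0.996) and *Dnajb1* (0.995) for *Il6st*, *Tent4a* (0.992) and *Rasl11b* (0.989) for *Stat2*, and *Akt2* (0.995) and *Aatf* (0.992) for *Stat5a*. For the others they were *Rpl23a* (0.991) and *Ciao2a* (0.971) for *Jak2*, *Klhl5* (0.999) and *Cd46* (0.997) for *Tyk2*, *Smarca2* (0.993) and *Btbd8* (0.992) for *Stat3*, *Ptrh2* (0.996) and *Aldh2* (0.996) for *Stat5b*, and *Plp2* (0.998) and *Ttll1* (0.997) for *Stat6*. The number of members at the floor differed between libraries. The library labelled *Trf1+/+* replicate 1 had 6 of the 9 at the floor and *Trf1+/+* replicates 2 and 3 had 4 and 3, against 1, 3 and 0 in *Trf1flox/flox* replicates 1, 2 and 3.

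Upstream of the kinases, 15 of 39 cytokine receptor genes were listed and 13 tested, 8 with a log2 fold change above 0 and 5 below, with a median of 0.26. *Prlr*, the prolactin receptor, which signals through JAK2 and STAT5, had 0.891, 0.829 and 0 normalized counts in *Trf1+/+* libraries against 534, 368 and 51.7 in *Trf1flox/flox* libraries, at least 118-fold higher. *Csf2ra*, the GM-CSF receptor chain, had 0, 0.829 and 0 against 23.2, 60.1 and 48.2, at least 16.2-fold higher. In both receptors the *Trf1+/+* group was at the floor throughout, as for *Stat2*, and they passed the filter only through their *Trf1flox/flox* libraries, so no model p-value is given. *Ghr*, the growth hormone receptor and the most abundant of the list, had 3286, 291 and 4776 against 2051, 2781 and 3651, and these groups overlapped.

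Of 33 cytokine ligands, 4 were listed and tested, 2 above 0 and 2 below, with a median log2 fold change of -0.03. *Ebi3*, a subunit of interleukin-27, had 370, 1.66 and 64.0 normalized counts in *Trf1+/+* libraries against 0, 85.2 and 0 in *Trf1flox/flox* libraries. *Ctf1*, the gp130 ligand cardiotrophin-1, had 0, 506 and 175 against 478, 1.09 and 256. Both overlapped between genotypes.

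Negative regulators were listed for 15 of 19 genes and tested for 12, 7 above 0 and 5 below, with a median of 0.27. *Socs5*, of the suppressor of cytokine signaling family, had 896, 713 and 345 normalized counts in *Trf1+/+* libraries against 17.2, 185 and 239.8 in *Trf1flox/flox* libraries. All of its *Trf1flox/flox* values were lower (log2 fold change -2.70, SE 1.19, unadjusted p = 0.0425, adjusted p = 0.970 from limma). Without *Trf1flox/flox* replicate 1 the log2 fold change was -1.52 (unadjusted p = 0.139 from limma). The unadjusted p from limma was 0.104 and 0.103 without *Trf1+/+* replicates 1 and 2, and 0.0689 with array weights. In edgeR it was 0.0996. It was under 0.05 in DESeq2 (0.0433) and, in limma, after median centring (0.0350). Without *Trf1+/+* replicate 3, *Trf1flox/flox* replicate 2 or *Trf1flox/flox* replicate 3 it was 0.0495, 0.0328 and 0.0318 in limma. Of all tested genes, 3.33% were lower without overlap and 1.03% were lower at an unadjusted p under 0.05. *Pias1*, which inhibits activated STATs, had 2.67, 854 and 315 against 993, 1269 and 342, with overlapping groups.

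The list of other components and coactivators had 14 of 16 genes listed and 11 tested, 7 above 0 and 4 below, with a median of 0.49. *Grb2*, an adaptor that links cytokine receptors to Ras, had 1.78, 24 and 55.2 normalized counts against 400.4, 133 and 154, without overlap (log2 fold change 3.69, SE 2.09, adjusted p = 0.970 from limma). *Shc1*, a second adaptor, had 495, 319 and 62.1 against 0, 160 and 49.6. *Crebbp*, a histone acetyltransferase that STATs recruit, lay between 154 and 765 in every library.

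Genes known as targets of these STATs were counted the same way. Of 30 STAT3 targets, 19 were listed and 14 tested, 8 above 0 and 6 below, with a median of 1.20. *Mcl1*, an anti-apoptotic BCL2 relative that is also in the STAT5 list, had 258, 11.6 and 19.7 normalized counts in *Trf1+/+* libraries against 304, 519 and 318 in *Trf1flox/flox* libraries, without overlap (log2 fold change 3.18, SE 1.56, adjusted p = 0.970 from limma). *Hif1a*, the hypoxia-inducible factor, had 1327, 449 and 642 against 239.7, 1.09 and 367, without overlap in the other direction (log2 fold change -3.67, SE 1.74, adjusted p = 0.970 from limma). Without *Trf1flox/flox* replicate 2, which had 1 read, it was -1.29, and edgeR and DESeq2 gave -1.84 and -1.96. *Ccnd1*, which encodes cyclin D1, lay between 522 and 2569 in every library, with overlapping groups.

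Of 48 interferon targets, 28 were listed and 13 tested, 6 above 0 and 7 below, with a median of -0.01. *Ifit3*, an antiviral protein, had 0, 0 and 54.2 normalized counts in *Trf1+/+* libraries against 125, 211 and 24.8 in *Trf1flox/flox* libraries, and the groups overlapped. *Ifi27*, an interferon-inducible gene, had 2359, 766 and 659 against 259, 853 and 799, and *B2m*, the light chain of MHC class I, lay between 601 and 2036. The other 15 listed interferon targets did not pass the filter.

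Of 15 STAT5 targets, 9 were listed and 8 tested, 2 above 0 and 6 below, with a median of -0.67. *Igf1*, the growth factor induced by growth hormone through STAT5, had 689, 449 and 179 normalized counts against 190, 136 and 42.0. Only *Trf1flox/flox* replicate 1, at 190, reached the *Trf1+/+* range (log2 fold change -1.88, SE 1.14, adjusted p = 0.970 from limma). *Id2*, an inhibitor of helix-loop-helix factors, lay between 1189 and 3049. Of 15 STAT6 targets, 4 were listed and tested, 2 above 0 and 2 below, with a median of -0.03. *Il4ra*, the interleukin-4 receptor chain, had 0, 17.4 and 0 against 18.0, 0 and 30.3. *Cdh1*, which encodes E-cadherin of epithelial cells, lay between 365 and 3180. Of the 70 distinct genes tested over the 8 lists, 3 (4.29%) had an unadjusted p under 0.05 in limma, near the 3.13% of all tested genes, and none passed after adjustment. They were *Socs5*, *Prlr* and *Csf2ra*, and the last 2 are those with a group at the floor. Setting these 2 to their bounds could not move the median of their list, since both bounds lie above it.

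**Figure D4:**
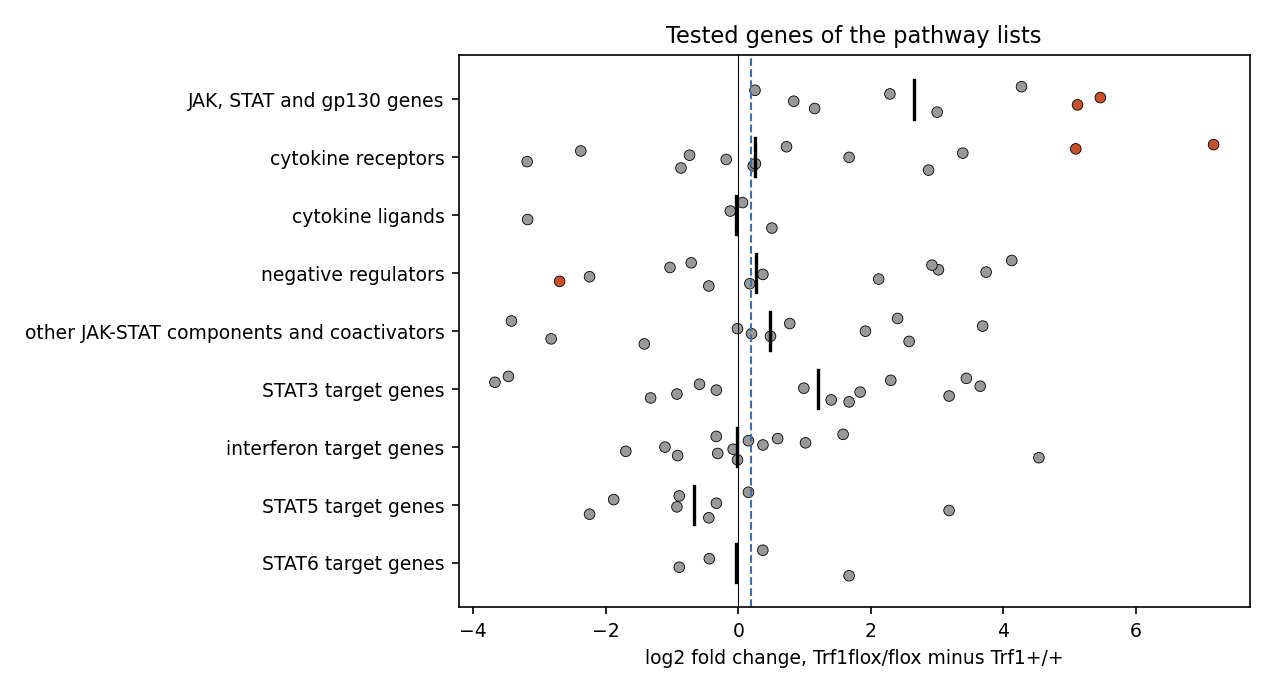
Each point is a tested gene, with its log2 fold change, Trf1flox/flox minus Trf1+/+, on the x axis and its list on the y axis, orange where the unadjusted p in limma was under 0.05 (for Stat2, Prlr and Csf2ra with the Trf1+/+ group at the floor), with the median of each list in black. The dashed line is the median of all tested genes (0.20), and the row of JAK, STAT and gp130 genes shows the 8 that passed the filter, all to the right of 0 here, though Stat3 and Stat6 changed sign under other settings.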

How the data were processed

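RNA of sorted mouse kidney cells was amplified with oligo(dT) priming and template switching, without strand or molecular identifiers. Per the paper and the labels, reads were aligned with TopHat2 2.0.10 and Bowtie 1.0.0 and counted with HTSeq 0.6.1 on GENCODE M20. The paper names GRCm38 and the submitters' processing notes GRCm39. Coordinates and exon lengths here are from GENCODE M21 on GRCm38, matched by symbol for 11911 (98.2%) of the listed genes, and promoters are from RefSeq on GRCm38.p6. The values deposited by the authors are normalized counts, that is reads divided by a size factor per library (a signal, not raw counts). All of them (100%) were whole multiples of 1 read, within 0.01 reads, and the reads recovered in this way were used for edgeR 4.0.16 and DESeq2 1.42.0 as alternatives.

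Differences were tested with limma 3.58.1 and its intensity trend on log2(normalized count + 1), for genes that reached 10 normalized counts in 3 or more libraries, with Benjamini-Hochberg adjustment over all 9966. Single genes were also compared with exact two-sided permutation tests. The members and the pathway lists were chosen with earlier results of these data known, and the study itself drew attention to JAK-STAT genes in these libraries, so their direction is not independent evidence. Beside the members and *Terf1*, the text names in each list the 2 tested genes with the smallest unadjusted p and the one with the highest mean, and for each member the 2 most correlated genes. For the RNA sequencing of these genotypes the paper gives 3 mice in each group. The labels do not name the mouse or litter of a library, and p-values measure the spread between these libraries.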

Additional observations from a re-analysis of the deposited data

How the results depend on the processing

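Alternatives were DESeq2 and edgeR on recovered reads, array weights, median centring, upper quartile scaling, a pseudocount of 10, no filter, a mean of at least 100 normalized counts, limma without the trend (chosen after seeing the data), and leaving out each library in turn. None of the 9 genes passed after adjustment in any. Of all genes, 58 did in DESeq2 (0.617% of 9407), among them *Prlr*, whose *Trf1+/+* group was at the floor, and none in edgeR, where 196 had an unadjusted p under 0.05. *Jak1*, *Stat5a* and *Il6st* kept their direction in all of these, and *Stat2* in all but the mean of at least 100, which left it out. The number of the 9 with an unadjusted p under 0.05, *Stat2* included, was 2 in limma and 2 in DESeq2 (410 of all genes). In DESeq2 the other gene was *Jak1* and not *Stat5a*, so the genes under 0.05 depended on the method. The number was 1 with array weights (409 of all genes) and in edgeR, and 3 with no filter (411 of all genes) or a pseudocount of 10 (368). A mean of at least 100 left 5 of the 9, all 5 above 0 and 0 under 0.05, and 170 of all genes under 0.05. Leaving out libraries, this number was lowest, at 1, without *Trf1flox/flox* replicate 2 or 3 (227 and 283 of all genes). It was highest, at 4, without *Trf1+/+* replicate 2 (438 of all genes). The number over all genes ran from 226 (without *Trf1flox/flox* replicate 1) to 650 (without *Trf1+/+* replicate 3), and 2 of the 9 were under 0.05 in both of these. The direction turned for *Stat3* in DESeq2 (-1.39), edgeR (-1.43) and with array weights (-0.89), for *Stat6* with array weights (-0.36) and median centring (-0.16), for *Ctf1* with array weights (-0.23), for *Cdh1* with both (-0.17 and -0.043), and for *B2m* (-0.26) and *Id2* (-0.26) with median centring. Median centring moved the median of all genes from 0.20 to -0.22, upper quartile scaling to 0.35, DESeq2 to -0.05 and edgeR to -0.04. Leaving out 1 library turned *Stat3* (-1.93 to 2.46), *Stat6* (-1.89 to 2.52), *Stat5b* (-0.32 to 4.22), *Tyk2* (-0.019 to 3.05), *Terf1* (-3.38 to 0.15), *Ctf1* (-2.23 to 2.97), *Crebbp* (-0.15 to 1.01), *Ccnd1* (-0.93 to 0.22), *B2m* (-0.31 to 0.57), *Ghr* (-0.53 to 1.49), *Cdh1* (-0.39 to 1.07) and *Id2* (-0.10 to 0.58). The cause was not tested. No paired analysis was possible because the labels give no replicate numbers shared by the groups.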
